A study of Mus musculus with 2 samples.

Results

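A set of 10 genes of the NF-kB pathway was followed in resident cells of mouse bone, 96 h after vehicle or doxorubicin. They are 3 genes of NF-kB subunits (Nfkb1, Nfkb2, Relb), 3 of the IkB family (Nfkbia, Nfkbiz, Bcl3), 2 of ubiquitin regulators (Tnfaip3, Birc3) and 2 induced targets (Icam1, Tnfaip2). The 10 genes were chosen by name, all of them were present in both expression tables, and each table listed 21905 genes.

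NF-kB is a family of transcription factors that inhibitors of the IkB family hold in the cytoplasm. Signals from TNF, interleukin-1 or Toll-like receptors lead to the breakdown of the inhibitor, and the freed factors then switch on inflammatory genes together with genes for their own inhibitors and subunits, which makes a feedback loop. In marrow stroma the pathway is known for control of cytokines, chemokines and adhesion molecules.

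The cells came from femurs and tibias of female mice aged 12 weeks, digested with collagenase after Veh (vehicle) or Doxo (doxorubicin, an anthracycline that damages DNA, 10 mg/kg). Hematopoietic and erythroid cells were depleted by CD45, CD71 and Ter119. The labels name CD31 as a further depleted marker, yet endothelial-like cells remained in both libraries. Each condition was 1 library of 2488 cells, prepared with a droplet-based kit that reads the 3′ end of transcripts. Neither the strain nor the number of mice behind a library is given in the sources used here. Without replicates no test was made, and the 95% intervals given cover only the error of counting. The Veh library held 24860081 unique molecular identifiers (UMIs, tags that count single RNA molecules) and the Doxo library 20792397, with medians of 8693 and 7347.5 per cell. The libraries shared 4 cell barcodes.

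Cells were clustered and named by marker genes. The CAR-like cells (Cxcl12-abundant reticular cells, the marrow stroma that feeds blood stem cells) numbered 363 in Veh and 419 in Doxo, and 8 of their 8 markers were higher than in other cells. Bone and cartilage fibroblast-like cells numbered 1092 and 1344, arteriolar and endosteal fibroblast-like cells 427 and 263, osteoblast-like cells 212 and 133, chondrocyte-like cells 247 and 205, and endothelial-like cells 103 and 69. A cluster of 44 Veh and 55 Doxo cells stayed unnamed. In sum, 2479457 UMIs of Veh and 3254991 UMIs of Doxo fell in the CAR-like class. Transcripts of other cell types differed between the libraries. In CAR-like cells the 4 erythroid markers summed to 363 CPM (UMIs per 1000000 UMIs of the class) in Veh and 1.84 in Doxo, and the 8 osteoblast markers to 7730 and 2359, while the 6 immune markers were at 73.0 and 64.8. Their part in the results below was not tested.

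The DNA that NF-kB binds is a short, nearly symmetric site, the kappa B consensus of 10 bases. It was searched on both strands in the 250 bases before the RefSeq start sites on GRCm38, a description that says nothing of binding in these cells. Of the 10 genes, 7 have such windows in the table used, 10 windows in all, and 6 of these windows held a match, as did 7.25% of all 32851 windows. By gene, 4 of the 7 held a match. Nfkb2 alone has 3 of the windows with a match, and its windows 2 and 3 overlap. The genes are known NF-kB targets, so this is no independent evidence. The inhibitor gene Nfkbia is shown whole, since it was lower in Doxo in every class of cells, with the match in capitals and the strand of the gene reading 5′ to 3′ (chr12:55492648-55492897, minus strand, upstream of the gene). The match starts 29 bases before the start site.
Nfkbia: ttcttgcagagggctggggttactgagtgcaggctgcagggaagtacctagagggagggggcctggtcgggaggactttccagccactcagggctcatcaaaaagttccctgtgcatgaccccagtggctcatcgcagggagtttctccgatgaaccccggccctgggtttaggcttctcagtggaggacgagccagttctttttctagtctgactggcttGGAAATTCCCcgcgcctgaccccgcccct

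For 3 other genes with a match, 30 bases around it are shown, again with the match in capitals. Nfkb2 (chr19:46304689-46304718, plus strand) has 3 windows, each with a match. The block of 2 overlapping matches in the first of them, in an exon of another transcript of the gene, is shown. Tnfaip3 (chr10:19015411-19015440, minus strand) has 2 windows, of which the first holds 2 matches and the other none, and the match nearer the start site, in an intron of a longer transcript, is shown. Tnfaip2 (chr12:111442627-111442656, plus strand) has one in an exon. Tnfaip2 is shown because its levels went against those of the others in CAR-like cells.
Nfkb2: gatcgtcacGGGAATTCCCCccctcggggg
Tnfaip3: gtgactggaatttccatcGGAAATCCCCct
Tnfaip2: gactattttaGGAGGGCCCCtccagggtcg

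The windows of Icam1, Birc3 and Bcl3 held no match, which says only that these letters are not in those 250 bases.

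Among CAR-like cells the levels of 9 of the 10 genes were lower in Doxo than in Veh, and that of Tnfaip2 was higher. Summed over the 10 genes, 3925 UMIs in Veh and 3433 in Doxo gave 1583 and 1055 CPM, a log2 ratio of -0.59 (interval -0.65 to -0.52). At least 1.5 times lower were 4 of 10 (Nfkbia, Nfkb1, Tnfaip3, Birc3), against 11.7% of the 12612 genes with at least 10 UMIs in these cells, and 1 was at least 1.5 times higher, against 14.1%. The median of the 10 log2 ratios was -0.57, and that of all genes tested was 0.05. The sum for the 9 genes other than Tnfaip2 was 1506 CPM in Veh and 846 in Doxo, a log2 ratio of -0.83. Without a group of 85 Veh and 3 Doxo cells, which a clustering that itself used 6 of the 10 genes set apart and which is described further on, 0 of the 10 were at least 1.5 times lower. Among populations found without the 10 genes, also described there, the sum had a log2 ratio of -0.35 in population 2 and -0.37 in population 3. It was 0.0037 in population 1 and 0.68 in population 4. These sums include Tnfaip2, which was at 1.77 in population 1.

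**Figure D1:**
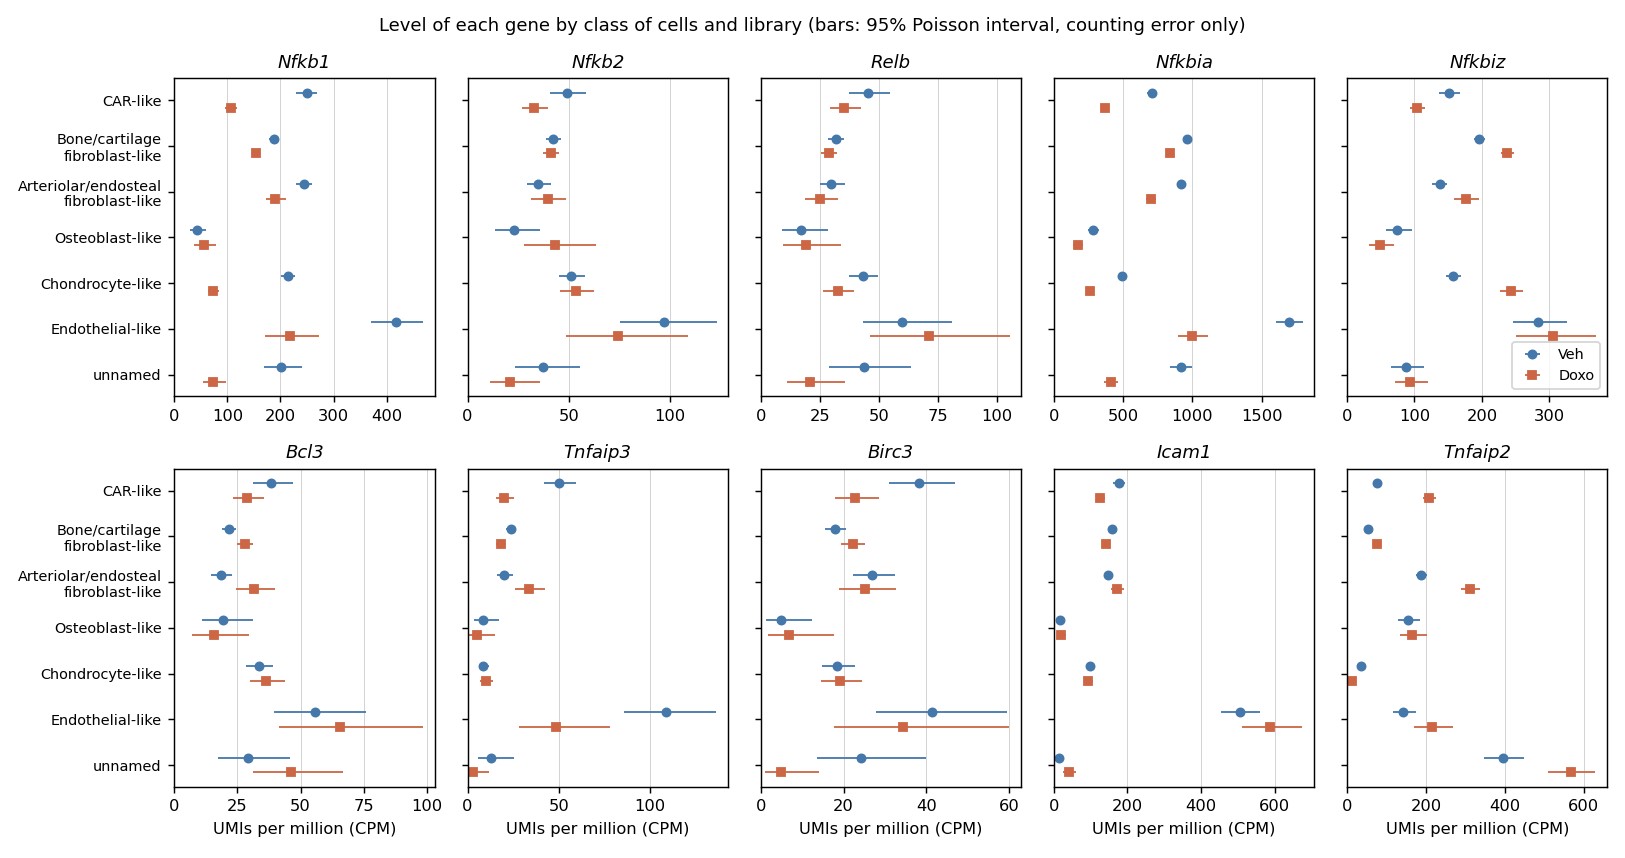
Level of each gene in each class of cells, in CPM (horizontal axis, separate scale for each gene), with Veh as blue circles, Doxo as orange squares and bars for the 95% Poisson interval. Nfkbia in CAR-like cells stands at 707 CPM in Veh and 371 in Doxo, Tnfaip2 at 77.0 and 208, and endothelial-like cells hold the highest Veh level of 9 of the 10 genes.

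Among the subunits, Nfkb1 (chr3:135584655-135691547), which encodes the precursor of a DNA-binding subunit, had 618 UMIs in Veh and 347 in Doxo in CAR-like cells, or 249 and 107 CPM. The log2 ratio was -1.22 (interval -1.42 to -1.03), and Gm43430 overlaps the gene on the same strand, so that reads of that stretch could be shared. Nfkb2 (chr19:46304320-46312385), the matching gene of the alternative pathway, had 122 and 107 UMIs, or 49.2 and 32.9 CPM, a log2 ratio of -0.58, just short of 1.5 times. Relb (chr7:19606217-19629438), the partner that binds its product, had 113 and 115 UMIs, or 45.6 and 35.3 CPM, a log2 ratio of -0.37 whose interval reached 0.02. The subunit genes were thus lower by unequal amounts, with Nfkb1 furthest from 0 and Relb within counting error.

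Of the IkB family, Nfkbia (chr12:55489410-55492647), the main cytoplasmic inhibitor, itself induced by NF-kB, had 1754 UMIs in Veh and 1207 in Doxo. It stood at 707 and 371 CPM, a log2 ratio of -0.93 (interval -1.04 to -0.83), in 74.7% of Veh and 69.5% of Doxo CAR-like cells. With each cell thinned to 2000 UMIs these shares were 54.6% and 37.7%, so the difference was wider at equal depth. In osteoblast-like cells, where the share was lowest, the thinned shares were 30.5% and 26.2% at median depths of 3102.5 and 3005 UMIs before thinning, against 6231 and 7263 in CAR-like cells. Nfkbiz (chr16:55811375-55838899), an inducible nuclear member that works with NF-kB on secondary targets such as Il6, had 376 and 337 UMIs, or 152 and 104 CPM, a log2 ratio of -0.55 (interval -0.77 to -0.33), which was 0.31 without cells of 10 or more cytokine UMIs. Bcl3 (chr7:19808462-19822770), another nuclear member, had 95 and 94 UMIs, or 38.3 and 28.9 CPM, a log2 ratio of -0.41 whose interval reached 0.02.

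The 2 ubiquitin regulators act on the signal between receptor and inhibitor. Tnfaip3 (chr10:19000910-19015657), an ubiquitin-editing enzyme that ends the signal, had 124 UMIs in Veh and 65 in Doxo, or 50.01 and 20.0 CPM. Its log2 ratio of -1.32 (interval -1.78 to -0.88) was the lowest of the 10 genes in CAR-like cells, with an interval that overlapped that of Nfkb1. Birc3 (chr9:7848699-7873186), an ubiquitin ligase of the receptor complex, had 95 and 74 UMIs, or 38.3 and 22.7 CPM, a log2 ratio of -0.75 (interval -1.21 to -0.30). It stayed at least 1.5 times lower under 7 of 12 alternative settings, whereas Nfkbia, Nfkb1 and Tnfaip3 each did so under 10.

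The induced targets parted. Icam1 (chr9:21015985-21028817), a receptor for leukocyte integrins, had 437 UMIs in Veh and 409 in Doxo, or 176 and 126 CPM, a log2 ratio of -0.49 (interval -0.69 to -0.29). Tnfaip2 (chr12:111442469-111455018), found as a gene that TNF induces in endothelial cells, had 191 and 678 UMIs, or 77.0 and 208 CPM. Its log2 ratio was 1.43 (interval 1.20 to 1.67), and a UMI of it was seen in 31.7% of Veh and 59.9% of Doxo cells, or 15.6% and 28.9% after thinning. It was at least 1.5 times higher under 12 of 12 alternative settings, with log2 ratios from 0.98 to 1.60. In chondrocyte-like cells, the class with its lowest share, 4.98% and 1.00% of thinned cells held a UMI of Tnfaip2 although their median depths of 19476 and 14753 UMIs were the deepest of the named classes.

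**Figure D2:**
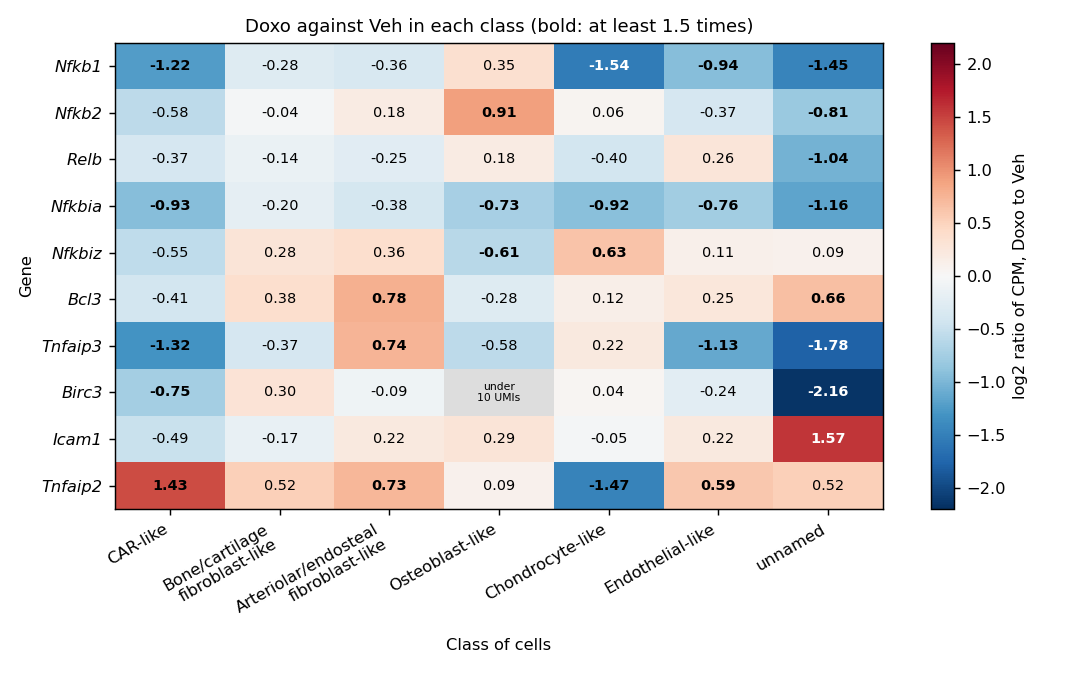
Log2 ratio of CPM, Doxo to Veh, for each gene (rows) in each class (columns), with blue for lower and red for higher in Doxo and bold for at least 1.5 times; a grey cell has under 10 UMIs. Nfkbia is below 0 in every column, and Tnfaip2 is 1.43 in CAR-like and -1.47 in chondrocyte-like cells.

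Across the 7 classes the 10 genes did not move as one. Nfkbia was lower in Doxo in 7 of 7 classes, at least 1.5 times in 5, with log2 ratios from -1.16 in the unnamed cluster to -0.20 for bone and cartilage fibroblast-like cells. Nfkb1 was lower in 6 of 7, at least 1.5 times in 4, from -1.54 in chondrocyte-like cells to 0.35 in osteoblast-like cells. Tnfaip2 was above 0 in 6 of 7 and at least 1.5 times higher in 3. Bcl3 was above 0 in 5 of 7, and Icam1 in 4 of 7.

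In bone and cartilage fibroblast-like cells, the largest class, 0 of 10 genes were at least 1.5 times lower, against 11.7% of genes, and 0 higher, against 5.58%. Nfkbia had 10722 UMIs in Veh and 9025 in Doxo there, or 963 and 841 CPM, a log2 ratio of -0.20 (interval -0.24 to -0.16). Nfkbiz was on the other side, at 196 and 238 CPM, with a log2 ratio of 0.28. Tnfaip2 was at 52.9 and 76.0 CPM, a log2 ratio of 0.52 (interval 0.37 to 0.68). It passed 1.5 times after thinning (0.94), at a resolution of 0.2 (0.80), by the mean of per-cell CPM (0.65) and centred on the median gene (0.61). At that resolution the class held 1467 cells in place of 2436, and a cluster of 846 cells was unnamed. The interval lay below 0 for 4 of the 10 genes and above 0 for 4, and the median log2 ratio was -0.09, the same as that of all genes tested.

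In arteriolar and endosteal fibroblast-like cells 0 of 10 were lower, against 12.2% of genes, and 3 were higher, against 8.66%. The 3 were Bcl3 at 18.4 and 31.6 CPM, Tnfaip3 at 20.0 and 33.5, and Tnfaip2 at 188 and 312, with log2 ratios of 0.78, 0.74 and 0.73. Tnfaip3, which was 1.32 log2 units lower in CAR-like cells, was therefore higher in these fibroblast-like cells, on 85 and 72 UMIs. Its ratio fell short of 1.5 times, at 0.41, with 20 principal components in place of 35, where the class held 819 cells in place of 690. Without the 4 cells with most of its UMIs in each library, chosen after seeing the data, it was 0.47 (interval -0.10 to 1.02). Nfkbia and Nfkb1 were lower by less than 1.5 times, with log2 ratios of -0.38 and -0.36.

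In chondrocyte-like cells 3 of 10 were lower, against 13.3% of genes, and 1 was higher, against 17%. Nfkb1 had 1040 UMIs in Veh and 227 in Doxo, or 214 and 73.2 CPM, a log2 ratio of -1.54 (interval -1.76 to -1.34). Nfkbia was at 491 and 260 CPM, a log2 ratio of -0.92, and Tnfaip2 at 34.4 and 12.3 CPM, a log2 ratio of -1.47 (interval -2.04 to -0.97) on 167 and 38 UMIs. Of the Tnfaip2 UMIs in Veh, 1 cell held 52, and without the 4 cells with most of them in each library, an alternative chosen after seeing the data, the log2 ratio was -1.16 (interval -1.94 to -0.49). Nfkbiz was higher instead, with 158 CPM in Veh and 243 in Doxo, a log2 ratio of 0.63 (interval 0.48 to 0.77), or 0.32 after thinning. Nfkbia and Nfkbiz, both of the IkB family, thus lay on opposite sides of 0 in these cells.

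In endothelial-like cells, which held the highest level of 9 of the 10 genes in each library, 3 of 10 were lower, against 12.6% of genes, and 1 was higher, against 18.1%. Nfkbia stood at 1698 CPM in Veh and 999.96 in Doxo on 1190 and 350 UMIs, a log2 ratio of -0.76. Nfkb1 was at 418 and 217 CPM, a log2 ratio of -0.94, and Tnfaip3 at 108 and 48.6 CPM, a log2 ratio of -1.13 on 76 and 17 UMIs. After thinning, the Tnfaip3 ratio turned to 0.11, and the share of cells with a UMI of Nfkb1 went from 37.5% in Veh to 52.5% in Doxo, against its CPM, so no order is read from that share. Without cells of 10 or more UMIs of cytokine genes, 16 in Veh and 1 in Doxo, the log2 ratios were -0.45 for Nfkbia and -0.46 for Nfkb1, short of 1.5 times. Icam1, which lines activated vessels, was at 505 and 589 CPM, a log2 ratio of 0.22 with an interval that held 0. In Doxo 1 cell held 65 of its 206 UMIs. Without the 4 cells with most of them in each library, chosen after seeing the data, the log2 ratio of Icam1 was -0.38 (interval -0.74 to -0.04).

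In osteoblast-like cells, the shallowest class, 9 of the 10 genes had at least 10 UMIs. Of these 2 were lower, Nfkbia at 284 and 171 CPM and Nfkbiz at 74.7 and 48.3, against 15.5% of genes, and 1 was higher, Nfkb2 at 22.9 and 43.1 on 19 and 25 UMIs, against 24.3%. The interval of the log2 ratio was -1.33 to 0.04 for Nfkbiz and -0.0045 to 1.86 for Nfkb2, so both differences lay within counting error. Pericyte and smooth muscle markers summed to 9.63 CPM in Veh and 599 in Doxo in these cells, and their part in these differences was not tested. In cells of 1000 or more genes and up to 5% mitochondrial UMIs the log2 ratios were -0.15 for Nfkbia and 0.33 for Nfkbiz. The median gene of this class had a log2 ratio of 0.12, so the ratios there are read relative to it. In the unnamed cluster 6 of 10 were lower, against 12.9% of genes, and 2 were higher, against 16.2%, most of them on under 60 UMIs.

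Endothelial-like cells thus came first for every gene but Tnfaip2, although for Birc3, Bcl3 and Relb in Veh the interval overlapped that of CAR-like cells, the next in order. In Doxo it overlapped that of the next class for Nfkbiz, Nfkb1, Nfkb2, Tnfaip3, Birc3 and Bcl3. In Veh, Nfkbia went from 1698 CPM in endothelial-like cells through 963 in bone and cartilage fibroblast-like cells and 707 in CAR-like cells to 491 in chondrocyte-like and 284 in osteoblast-like cells. Bone and cartilage fibroblast-like, arteriolar and endosteal fibroblast-like (917) and unnamed cells (916) had intervals that overlapped. Those of the fibroblast-like classes only just did so (945 to 982 and 888 to 946 CPM), and whether these classes differ was not tested. Tnfaip2 had another order, with 396 CPM in the unnamed cluster, 188 in arteriolar and endosteal fibroblast-like cells and 155 in osteoblast-like cells at the top. Over the 14 combinations of class and library, Tnfaip2 had a Pearson correlation of -0.02 with the mean pattern of the 10 genes, and the other 9 had values from 0.69 to 0.89. The mean includes each gene, and the points share libraries and depths, so this is a description only. Among 10679 other genes with at least 200 UMIs, those most like the mean pattern included Fbl (0.96), Hsp90ab1 (0.95), Afg3l2 (0.94) and Anp32a (0.94).

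The CAR-like cells were not uniform in these genes. Clustered alone they fell into population 1, with 268 Veh and 401 Doxo cells, population 2, with 85 and 3, and population 3, with 10 and 15. Markers of bone and cartilage fibroblasts summed to 12152 CPM in Veh and 10977 in Doxo in population 3, against 399 and 303 in population 1. The leading genes of population 2 were Il6, Ccl7, Ccl2, Gdf15 and Cxcl1. Since 6 of the 10 genes were among the 2000 variable genes used for clustering, their levels there are a description and no test. Population 2 held 60.3% of the UMIs of the 10 genes in Veh CAR-like cells, including 63.6% of Nfkbia and 72.6% of Tnfaip3, but 38.7% of Tnfaip2. The CAR markers of population 2 summed to 35448 CPM in Veh, against 42739 in population 1.

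In population 1, Nfkbia was at 341 CPM in Veh and 298 in Doxo, a log2 ratio of -0.20 (interval -0.35 to -0.04). Nfkb1 was at 106 and 91.3 CPM, with a log2 ratio of -0.22 and an interval that held 0, as did those of Nfkbiz, Nfkb2, Relb, Tnfaip3, Icam1, Birc3 and Bcl3. Tnfaip2 was at 71.5 and 212 CPM, a log2 ratio of 1.56 (interval 1.28 to 1.87). Among CAR-like cells with no UMI of Il6, Ccl2, Ccl7, Cxcl1 or Cxcl2, 178 in Veh and 322 in Doxo, the log2 ratio was -0.05 for Nfkbia, -0.06 for Nfkb1 and 1.71 for Tnfaip2. In cells with 1 to 9 such UMIs, 97 in Veh and 76 in Doxo, the 10 genes summed to 1053 CPM in Veh and 1590 in Doxo, a log2 ratio of 0.59 (interval 0.46 to 0.73). There Nfkbia had a log2 ratio of 0.47, Nfkbiz of 1.21, Icam1 of 0.96 and Tnfaip2 of 1.62, and Nfkb1 one of -0.74 (interval -1.19 to -0.31). Nfkb1 was thus lower and Nfkbia higher in Doxo in cells chosen this way. Over all CAR-like cells these cytokine genes summed to 4511 CPM in Veh and 280 in Doxo. The same count of UMIs therefore need not pick like cells in both libraries, which was not tested.

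**Figure D3:**
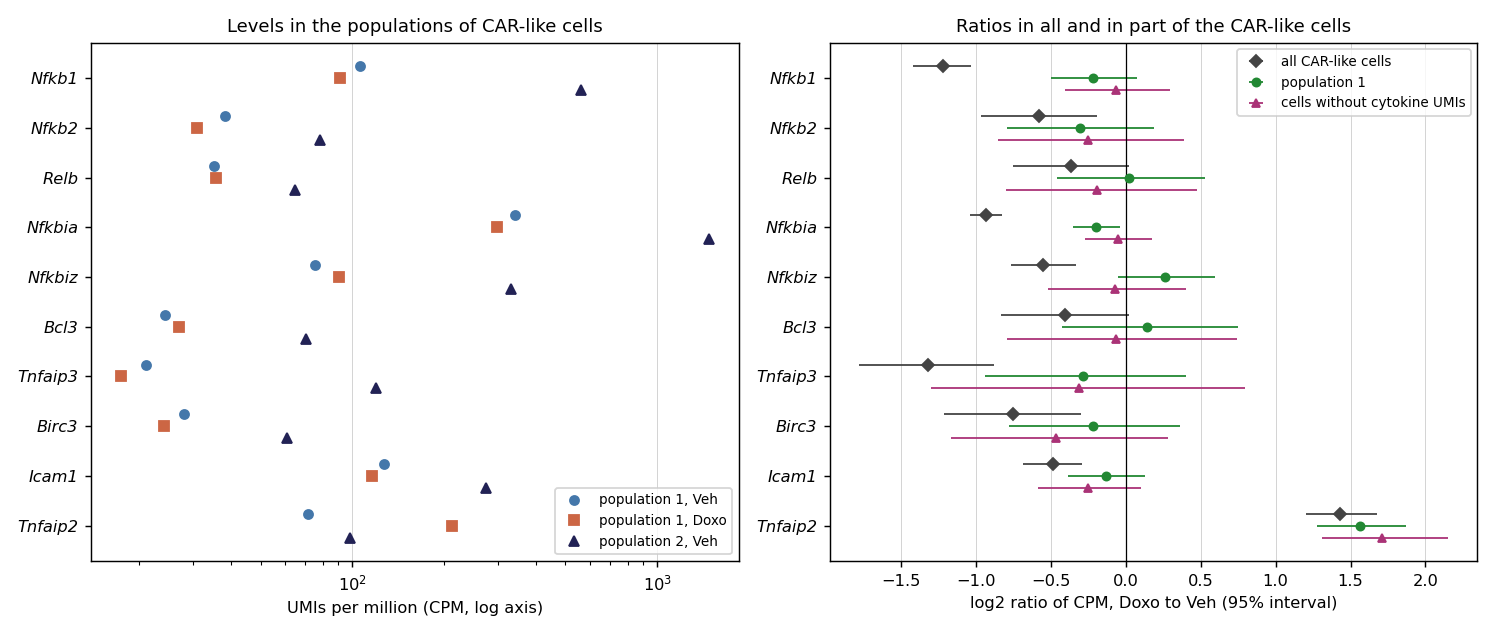
Left, the level of each gene (CPM, log axis) in population 1 of the CAR-like cells in Veh (blue circles) and Doxo (orange squares) and in population 2 in Veh (dark triangles). Right, the log2 ratio (Doxo to Veh) and its 95% interval in all CAR-like cells (diamonds), in population 1 (circles) and in cells without cytokine UMIs (triangles): Nfkbia moves from -0.93 to -0.20 and -0.05, and Tnfaip2 from 1.43 to 1.56 and 1.71.

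Cells with at least 10 UMIs of these 5 cytokine genes made up 24.2% of Veh and 5.01% of Doxo CAR-like cells (intervals 19.9% to 28.99% and 3.13% to 7.56%). They held 64.3% of the UMIs of the 10 genes in Veh and 16.3% in Doxo. Within them, 88 cells in Veh and 21 in Doxo, the 10 genes summed to 3014 and 2083 CPM, a log2 ratio of -0.53 (interval -0.67 to -0.40), with Nfkb1 at 472 and 168 CPM. In arteriolar and endosteal fibroblast-like cells such cells were 19.2% in Veh and 17.9% in Doxo, with intervals that overlapped. The 5 cytokine genes share regulation with the 10, so the split selects for them.

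A clustering without the 10 genes, the pathway lists and the early-response genes gave other populations. Its population 3, led by Ccl7, Ccl2 and Cxcl1, held 110 Veh and 65 Doxo cells. In it Nfkb1 was at 474 and 146 CPM, a log2 ratio of -1.69 (interval -2.08 to -1.34), Nfkbia at 1358 and 991, a log2 ratio of -0.45 (interval -0.61 to -0.30), and Tnfaip3 at 107 and 47.9, a log2 ratio of -1.13. Tnfaip2 was at 106 and 302 CPM, a log2 ratio of 1.51. The 10 genes summed to a log2 ratio of -0.37 (interval -0.47 to -0.27) there. In population 1, with 41 Veh and 275 Doxo cells, the 10 genes summed to 730 and 733 CPM, with log2 ratios of -0.50 for Nfkbia, -0.71 for Icam1, 2.09 for Nfkbiz and 1.77 for Tnfaip2. In population 2, with 201 and 64 cells, the sum had a log2 ratio of -0.35 (interval -0.62 to -0.09). There Nfkbia was at -1.30, on 292 and 27 UMIs, Icam1 at -1.31 and Tnfaip2 at 1.24. The leading genes of this population included the erythroid markers Hbb-bs and Hba-a1 and the osteoblast markers Bglap2, Bglap and Ibsp. Their part in these values was not tested. In population 4, with 11 and 15 cells, which carried markers of bone and cartilage fibroblasts, the sum had a log2 ratio of 0.68. The sum was thus lower in Doxo in 2 of these 4 populations, and Nfkbia in 3.

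Other genes of the pathway were read from lists in CAR-like cells. Of 17 receptors and adaptors with at least 10 UMIs, 3 were at least 1.5 times lower and 0 higher, with a median log2 ratio of 0.11, where the shares over all genes tested were 11.7% and 14.1%. Tnfrsf1a, a receptor for TNF, was at 164 CPM in Veh and 177 in Doxo, Il1r1, a receptor for interleukin-1, at 177 and 108 (log2 ratio -0.70), and the kinase gene Ripk1 at 93.2 and 64.8 (log2 ratio -0.52). Of 9 kinases, 0 were lower and 2 higher, with a median of 0.21: Chuk, Tab2 and Tbk1 had log2 ratios of -0.04, 0.15 and 0.22. Among 4 other subunits and inhibitors, Rel, the gene of a further subunit, was at 82.3 and 32.0 CPM, a log2 ratio of -1.36 (interval -1.72 to -1.02). Rela, which encodes the main activating subunit, was at 36.3 and 38.7, and Nfkbie, another inhibitor, at 37.5 and 35.02, both with intervals that held 0. Of 12 other negative regulators, 0 were lower and 1 higher, with a median of 0.01, and Tax1bp1, Itch and Rnf11 had log2 ratios of -0.42, 0.15 and -0.08.

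Of 19 induced targets, 10 were lower and 1 higher, against 11.7% and 14.1% of all genes tested, with a median log2 ratio of -0.89. The list includes Il6, Ccl2, Ccl7, Cxcl1 and Cxcl2, the genes by which cytokine-bearing cells were counted. Ccl2, a monocyte chemokine, was at 3062 CPM in Veh and 157 in Doxo, a log2 ratio of -4.28 (interval -4.41 to -4.15), whereas Vcam1, an adhesion molecule, was at 2071 and 2288, and Csf1, a macrophage growth factor, at 769 and 740. Of 21 early-response genes, which digestion of tissue can also induce, 11 were lower and 0 higher in CAR-like cells, against the same 11.7% and 14.1%, with a median of -0.60 and Fos, Fosb and Jun at 0.16, -0.06 and -0.52. In chondrocyte-like cells the same list had 1 lower and 14 higher, against 13.3% and 17% of all genes, with a median of 1.03. In bone and cartilage fibroblast-like cells it had 0 and 7, against 11.7% and 5.58%, with a median of 0.44. The part of digestion in the levels of the 10 genes was not tested.

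**Figure D4:**
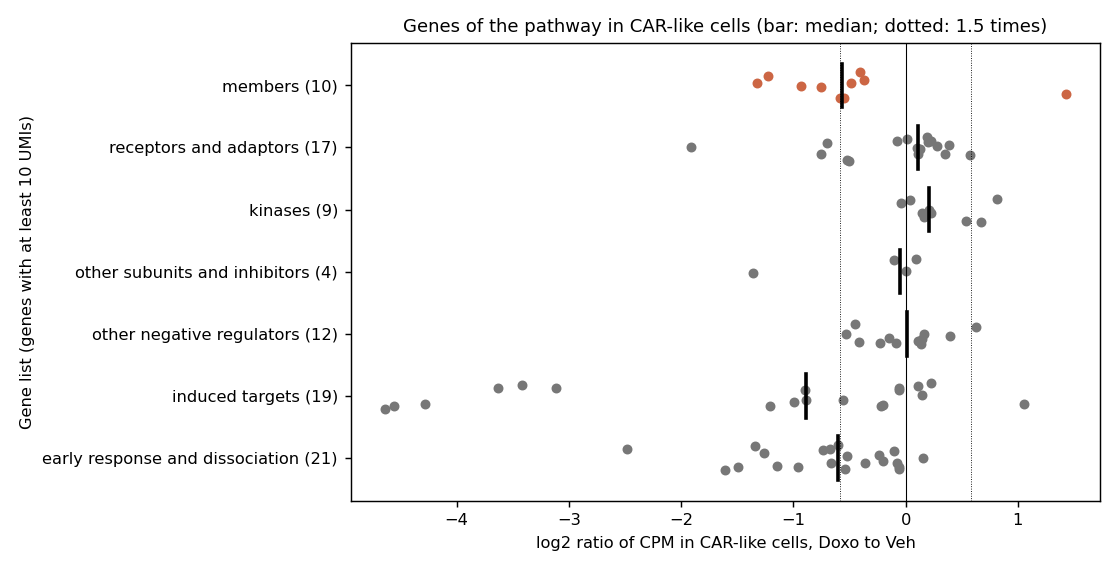
Log2 ratio of CPM, Doxo to Veh, in CAR-like cells for the 10 genes (orange) and for each list (grey points, 1 per gene with at least 10 UMIs); bars are medians and dotted lines mark 1.5 times. The medians are -0.57 for the 10 genes, -0.89 for induced targets and 0.21 for kinases.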

How the data were processed

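Per the labels, cells were from 1 Veh and 1 Doxo library, read with Cell Ranger on GRCm38 or mm10 and with Partek, whose versions are not given in the sources used here. As deposited, the authors' tables hold expression on a log2 scale, scaled to a common sum in each cell in 2 rounds. These steps were inverted: in each cell the most common level was taken as 1 UMI, and 99.9% of nonzero values up to 50 UMIs were whole within 0.05. The 27 symbols that were not whole were left out of counts over all genes. Cells were kept, merged and clustered in Seurat 5.3.0 (R 4.3.3) with 2000 variable genes, 35 components and a resolution of 0.1, and named by at least 3 markers. Doublets were kept. UMIs were summed per class, and log2 ratios of CPM with 0.5 UMI added have exact conditional binomial intervals, levels have Poisson intervals and shares exact binomial ones, at 95%, covering counting error only. Calculations were tested on simulated data. Genes with at least 10 UMIs in a class were counted, at least 1.5 times apart. Thinning used 2000 UMIs. The 10 genes and the lists were chosen with earlier results of these data known. Of each list the 3 genes with most UMIs in CAR-like cells are named, and of the 5 genes of most like pattern all but 1, which is not reported here. Gene positions are from GENCODE M21 on GRCm38. On the other strand, further genes overlap Nfkb2, Tnfaip2, Icam1 and Bcl3, and the strand setting of the counting is not given in the sources used here. Promoter windows are from RefSeq (GRCm38.p6). Nfkbiz, Nfkb1 and Relb were not searched. Alternatives are given in the closing section. Used were Python 3.11.15, numpy 2.4.6, scipy 1.17.1, pandas 2.3.3 and matplotlib 3.10.9.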

Additional observations from a re-analysis of the deposited data

Results flagged for a closer look

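Values of 2 genes pointed in opposite directions in 2 or more named classes, each by at least 1.5 times with an interval that excludes 0. The difference between classes was not tested, and each condition has 1 library. Tnfaip2 had a log2 ratio of 1.43 in CAR-like, 0.73 in arteriolar and endosteal fibroblast-like and 0.59 in endothelial-like cells, and of -1.47 in chondrocyte-like cells. In that class 1 Veh cell held 52 of its 167 UMIs, and the log2 ratio was -1.16 without the 4 cells with most of them in each library. In endothelial-like cells Tnfaip2 was only just past 1.5 times (1.504), on 100 and 75 UMIs, with an interval of 0.14 to 1.03. Tnfaip3 had a log2 ratio of -1.32 in CAR-like and -1.13 in endothelial-like cells, and of 0.74 in arteriolar and endosteal fibroblast-like cells. Its ratio was 0.0018 in CAR-like cells without population 2 and 0.11 in thinned endothelial-like cells.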

How the results depend on the processing

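The sum over the 10 genes in CAR-like cells stayed lower in Doxo under 9 of 11 alternatives. Among them, a resolution of 0.2 kept 363 and 419 CAR-like cells with unchanged values, and 20 components kept 364 and 419. They are hardly separate checks, also in the counts of settings given for single genes in these cells. The log2 ratio of the sum was -0.35 when CAR-like cells were chosen by 4 marker genes and -0.67 without cells of high depth. Without cells of 10 or more cytokine UMIs it turned to 0.17, and without population 2, an alternative chosen after seeing the data, to 0.19. Both sums include Tnfaip2, which stayed higher, and the sum of the other 9 genes was not taken there. Nfkbia was at -0.04 and -0.05 in these settings, Nfkb1 at -0.43 and -0.17, and Nfkbiz at 0.31 and 0.47. In both cases 0 of the 10 genes were at least 1.5 times lower. At a fold of 2 the count was 2. Under the other settings it was 3 to 6. Without population 2 the log2 ratio of Tnfaip3 turned to 0.0018. Among populations found without the lists, also chosen after seeing the data, values turned to 0.0744 for Nfkb1 and 0.85 for Birc3 in population 2. They turned to 0.65 for Nfkbia, 0.20 for Nfkb1 and 2.43 for Tnfaip3 in population 4, which has 11 Veh and 15 Doxo cells. That of Tnfaip3 rests on 1 UMI in Veh and 13 in Doxo. Nfkbiz, at -0.55 in all CAR-like cells, was at 2.09 in population 1 and 2.11 in population 4 of these populations. Those values rest on 4 and 8 UMIs in Veh and 129 and 61 in Doxo. Nfkbiz was at 0.31 without cells of 10 or more cytokine UMIs and at 0.47 without population 2. In other classes, Nfkbiz in osteoblast-like cells turned to 0.33 in cells of 1000 or more genes and up to 5% mitochondrial UMIs, and Tnfaip3 in endothelial-like cells to 0.11 after thinning. With 20 components the unnamed cells were another cluster, of 97 cells led by Chodl and Ptx4 in place of Clic5. They gave 0.11 for Relb, -2.50 for Icam1, 0.068 for Birc3 and -1.81 for Bcl3. At a resolution of 0.2 the unnamed cells pooled clusters of 846, 99 and 98 cells, which gave -0.38 for Icam1 and 0.24 for Birc3. These values are of other or mixed cells and are no check of the unnamed cluster. In that cluster Bcl3 was at -0.12 without cells of high depth and -0.21 without cells of 10 or more cytokine UMIs. It was at -0.16 without the 4 cells with most of its UMIs in each library, an alternative also chosen after seeing the data. The causes were not tested. Of 732 values of single genes, 604 stayed within the counting interval. No paired analysis was possible because each condition has 1 library, and for the same reason no replicate could be left out.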
